A study of Mus musculus with 10 samples.

Results

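The genes described here encode the potassium channels and their subunits (symbols starting with Kcn), the voltage-gated sodium channel alpha subunits (Scn), the pore-forming alpha-1 subunits of voltage-gated calcium channels (Cacna1) and the hyperpolarization-activated channels (Hcn). They were chosen by gene symbol among the protein-coding rows of the count table, and 118 of 54532 genes met the rule. Brain RNA was sequenced from 10 mice homozygous for the knockout allele Slc20a2tm1a(EUCOMM)Wtsi of a phosphate transporter gene, so that every group carried this allele and no wild-type brain was compared. From 1.5 months of age, 6 mice received FTY720 (fingolimod, a modulator of sphingosine-1-phosphate receptors) at 0.5 mg/kg into the peritoneum 3 times a week for 12 weeks, and 4 received placebo, the dimethyl sulfoxide vehicle alone. Mouse names hold a digit, 1 or 3, after the treatment letter, which the labels do not explain: 3 FTY720 mice and 1 placebo mouse carried digit 1, and 3 FTY720 and 3 placebo mice carried digit 3. The study's methods divide each brain between RNA and fixation without saying which regions went into the RNA, so values are of mixed tissue.

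Channel genes set how a neuron fires. Sodium channels open first and carry the upstroke of the action potential, Kv channels open on depolarization and end it, calcium channels couple it to transmitter release, and inward rectifiers, K2P leak channels and HCN channels set the resting state between spikes. Which members of a family a neuron uses is known to differ between brain regions: fast Kv3 channels and the P/Q-type calcium channel Cacna1a are prominent in the cerebellum, whereas Kcnh3 and the inward rectifier Kcnj4 are best known from the forebrain. Modifier Kv subunits (Kcnf, Kcng, Kcns, Kcnv) form no channel alone and assemble with Kv2 subunits. The auxiliary Kv beta and KChIP proteins bind Kv1 and Kv4 channels.

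Counts summed to between 14772745 and 18303981 per mouse. Enough reads for testing were present for 103 of the 118 channel genes, among 17665 genes tested in all. The 15 others included Kcnj1, with 0 counts in every mouse, and the sensory neuron sodium channels Scn10a and Scn11a. Slc20a2 itself kept 89 to 294 counts per mouse, with no wild-type level beside it. The digit went with markers of brain regions: all 9 cerebellar granule cell markers and 7 of 8 Purkinje cell markers were higher with digit 3, with summed levels of 176 to 215 CPM (counts scaled to library size after correction for library composition) against 1267 to 1382 CPM for granule cells. The hindbrain genes Hoxa5, Hoxb3, Hoxb5 and Hoxc4 had 0 counts in every digit 1 mouse. With digit 3, 6 of 8 cortex and hippocampus markers and 6 of 7 striatum markers were lower, although the tissue label, brain, is the same for all mice. General neuron markers summed to 5297 to 6004 CPM with digit 1 and 5357 to 5656 CPM with digit 3, and 1 of 7 was lower. Of 6 microglia markers 4 were lower, with sums of 286 to 325 CPM with digit 1 and 211 to 258 CPM with digit 3, without overlap. Mouse F3-612 stood apart in markers of peripheral nerve, which are given with Scn7a. In such bulk RNA, fewer cells of a type and less RNA per cell cannot be told apart. The digit difference of each channel gene below stands beside these region markers, and their part in it was not tested.

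The sequence before the start given by RefSeq is shown for the genes with the largest digit differences in each direction that have an entry in the RefSeq promoter table (GRCm38.p6) lying wholly before the annotated gene. The window is 250 bases, printed 5′ to 3′ on the gene's strand. Capitals mark the E-boxes CAGATG and CAGCTG, the GC box GGGCGG and the CRE core TGACG on either strand. The genes Kcng4 (chr8:119635681-119635930, minus strand) and Kcnc1 (chr7:46396218-46396467, plus strand) were higher with digit 3, and Kcnj4 (chr15:79505242-79505491, minus strand) and Kcna5 (chr6:126535556-126535805, minus strand) were lower. The Kcnc1 and Kcna5 windows end 29 and 143 bases before the start of the gene in the count table, and no GENCODE M21 transcript of Kcna5 was found to start at the end of its window.
Kcng4: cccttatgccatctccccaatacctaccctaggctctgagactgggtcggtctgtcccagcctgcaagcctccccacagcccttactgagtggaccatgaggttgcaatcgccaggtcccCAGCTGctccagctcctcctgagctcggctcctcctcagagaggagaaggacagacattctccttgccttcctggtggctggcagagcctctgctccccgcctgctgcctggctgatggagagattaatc
Kcnc1: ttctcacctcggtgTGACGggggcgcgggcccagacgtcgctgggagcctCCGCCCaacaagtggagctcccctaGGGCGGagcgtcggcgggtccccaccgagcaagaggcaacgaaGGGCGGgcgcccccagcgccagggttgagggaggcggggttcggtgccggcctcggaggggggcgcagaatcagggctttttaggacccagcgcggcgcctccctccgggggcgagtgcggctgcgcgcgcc
Kcnj4: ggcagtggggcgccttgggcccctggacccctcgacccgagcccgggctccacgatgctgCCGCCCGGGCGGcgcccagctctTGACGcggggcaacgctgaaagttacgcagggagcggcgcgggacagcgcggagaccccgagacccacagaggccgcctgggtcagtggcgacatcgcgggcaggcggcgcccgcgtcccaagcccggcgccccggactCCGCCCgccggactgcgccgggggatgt
Kcna5: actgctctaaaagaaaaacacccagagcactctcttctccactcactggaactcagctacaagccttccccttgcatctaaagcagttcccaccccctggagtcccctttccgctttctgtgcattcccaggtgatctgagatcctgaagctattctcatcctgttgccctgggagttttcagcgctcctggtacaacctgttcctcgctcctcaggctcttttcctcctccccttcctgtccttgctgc
In each direction 1 window was richer in G and C than the other. Kcnc1 and Kcnj4 had 74.4% and 77.2% G or C, with 30 and 35 CpG pairs and 3 GC boxes and 1 CRE core each. Kcng4 and Kcna5 had 60.4% and 53.2% G or C, with 4 and 3 CpG pairs. The Kcng4 window held 1 CAGCTG E-box, and the Kcna5 window held no match to any of the 4 motifs. Over all 32851 windows of this length, a GC box stood in 32.7%, TGACG in 17.8%, CAGATG in 14.4% and CAGCTG in 13.0%. The 116 windows of the 86 channel genes in the table held a GC box in 43.1%, TGACG in 16.4%, CAGATG in 14.7% and CAGCTG in 23.3%. These are matches of letters and not binding sites.

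Whether channel usage differed with the digit was tested with edgeR's quasi-likelihood test, with treatment in the fit and p-values adjusted over all genes. Of the 103 channel genes, 37 differed at an adjusted p under 0.05 (35.9%), beside 28.4% of all genes tested and 30.8% in a fit of protein-coding genes alone, where 37 channel genes differed too. Higher levels with digit 3 were found for 16 (15.5%, all genes 13.9%) and lower levels for 21 (20.4%, all genes 14.4%). With the trend of each library with gene length removed, 44 differed (42.7%, all genes 32.3%), 12 of them higher (11.7%, all genes 12%) and 32 lower (31.1%, all genes 20.3%). With trends in GC content and length removed 48 did (46.6%, all genes 26.6%), 18 higher (17.5%, all genes 9.71%) and 30 lower (29.1%, all genes 16.9%). Of the 37, 32 were among the 44 and 28 among the 48. The levels of 22 channel genes did not overlap between the 4 and the 6 mice (21.4%, all genes 14.2%), 9 of them higher and 13 lower with digit 3. Within the FTY720 mice alone, 3 of each digit, 23 differed (22.3%, all genes 17.7%). Without the only placebo mouse of digit 1, P1-623, 21 differed (20.4%, all genes 14.8%), and without F3-609 23 did (22.3%, all genes 16.4%). The median log2 fold change of the channel genes was -0.04, with 49 above 0 and 54 below, and that of all genes was -0.01.

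**Figure D1:**
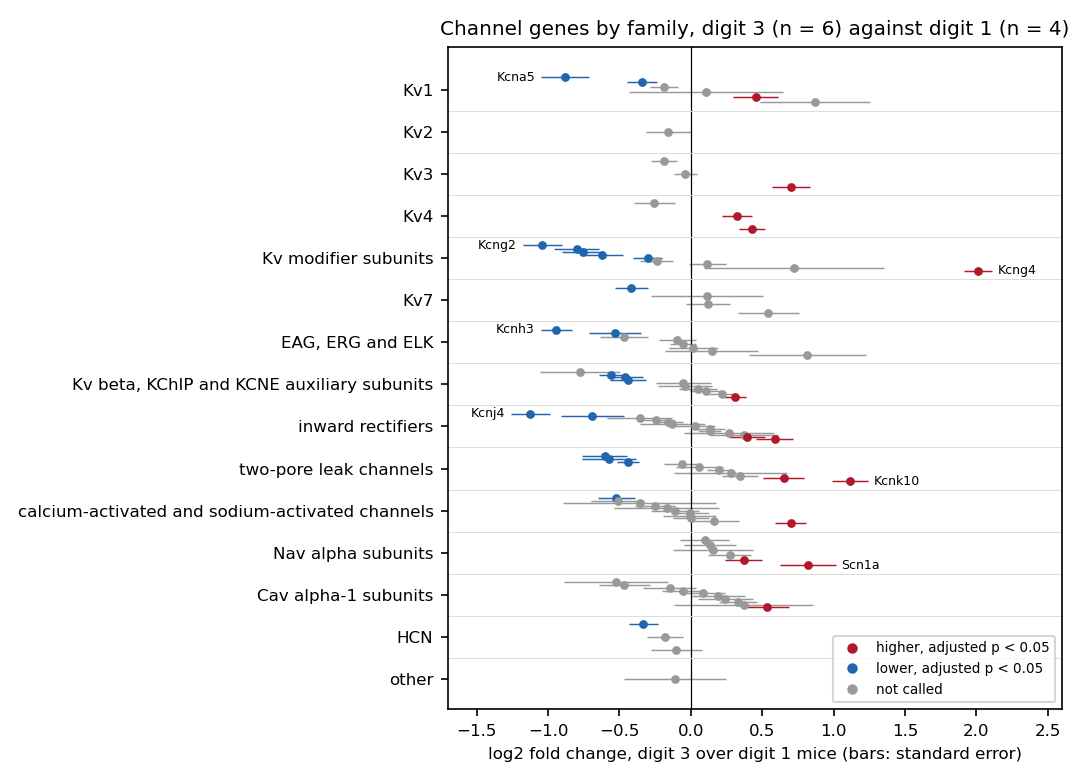
Log2 fold change of digit 3 over digit 1 mice (x axis) with its standard error for 98 of the 103 tested channel genes, 1 row of points per family. Red and blue points passed an adjusted p of 0.05 (14 higher, 20 lower), and grey points did not; Kcng4 lies furthest to the right at 2.01, and Kcnj4 furthest to the left at -1.13.

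The modifier subunits held both the largest difference and the most lower genes. Kcng4 (ENSMUSG00000045246, chr8:119623854-119635680, minus strand), measured 11.3, 10.6, 11.1 and 11.9 CPM in the digit 1 mice F1-622, F1-624, F1-918 and P1-623 and from 42.2 to 50.2 CPM (median 44.4) in the 6 digit 3 mice. All digit 3 mice lay above all digit 1 mice, and the difference (log2 fold change 2.01 ± 0.10, adjusted p = 3.58e-08) made Kcng4 the channel gene with the largest difference. In FPKM (fragments scaled to gene length and library size), its share of the summed modifier subunits went from 3.74 to 4.87% in digit 1 mice to 18.4 to 22.5% in digit 3 mice. Kcng4 encodes a subunit that alters the gating of Kv2 channels. The Kv2 gene Kcnb2 did not pass, with a log2 fold change of -0.16. Of the 9 modifiers tested, 5 were lower with digit 3, beside 14.4% of all genes. Kcng2 was 12.1, 13.0, 11.2 and 16.7 CPM with digit 1 against 5.01 to 8.97 CPM (median 6.63) with digit 3 (log2 fold change -1.04 ± 0.14, adjusted p = 0.000279). Kcnf1, the most abundant modifier at a mean of 17.3 FPKM, stood at 84.4, 129, 118 and 99.2 CPM with digit 1 against 52.7 to 82.6 CPM (median 70.3) with digit 3 (log2 fold change -0.76 ± 0.15, adjusted p = 0.00309). Kcng1 had 22.9 to 34.9 CPM with digit 1 and 14.3 to 22.5 CPM with digit 3 (log2 fold change -0.62 ± 0.15, adjusted p = 0.00979), and the groups of these genes did not overlap. Kcns1 (log2 fold change -0.80 ± 0.16, adjusted p = 0.00374) and Kcns2 (log2 fold change -0.30 ± 0.10, adjusted p = 0.0392) were lower with smaller or overlapping differences, while Kcnv1, Kcns3 and Kcng3 did not pass.

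Kv3 subunits repolarize fast-firing neurons. Kcnc1 was 161, 219.7, 229 and 204 CPM with digit 1 against 272 to 416 CPM (median 331) with digit 3 (log2 fold change 0.70 ± 0.13, adjusted p = 0.00291). Kcnc2 and Kcnc4 did not pass, with log2 fold changes of -0.04 ± 0.08 and -0.19 ± 0.09. Kcnc4 went from 29.4 to 32.8% of summed Kv3 FPKM in digit 1 mice to 18.1 to 25.1% in digit 3 mice. Summed Kv3 FPKM ranged from 70.2 to 91.1 with digit 1 and from 103 to 133 with digit 3, without overlap. Kv4 was the only other family among the 14 whose sums did not overlap, at 32.3 to 37.6 and 39.3 to 50.2 FPKM. Within it, Kcnd2, which carries the dendritic A-type current, rose from 110.3 to 129.8 CPM with digit 1 to 141 to 185 CPM with digit 3 (log2 fold change 0.43 ± 0.09, adjusted p = 0.00564), and Kcnd3 rose by less (log2 fold change 0.32 ± 0.11, adjusted p = 0.0377). With GC and length trends removed Kcnd2 was 0.24 and still passed, and Kcnd3 was 0.16 and did not (adjusted p = 0.0661).

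**Figure D2:**
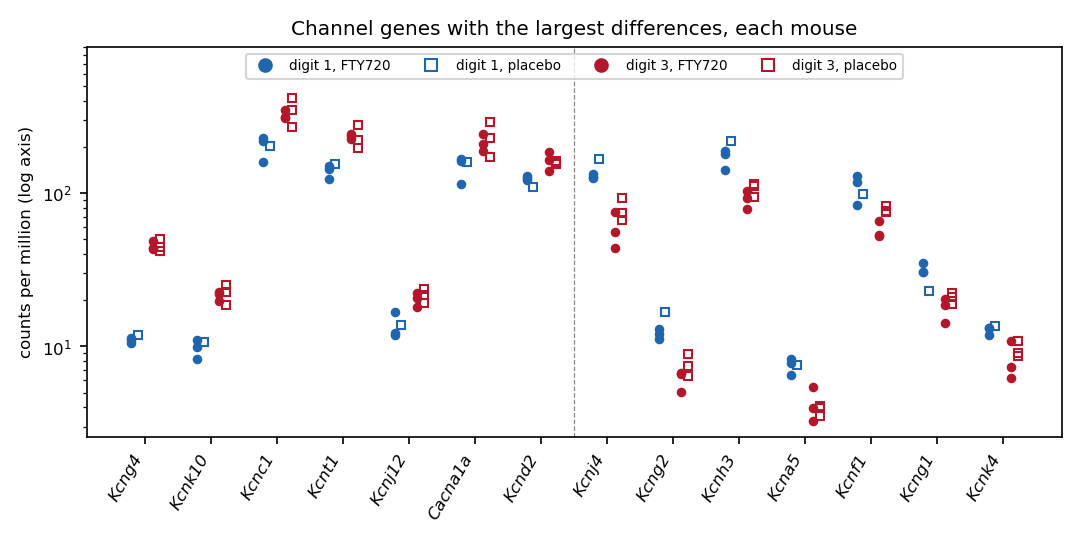
CPM (y axis, log scale) in each of the 10 mice for 7 channel genes with the largest rises and 7 with the largest falls among those whose digit groups did not overlap. Blue marks digit 1, red digit 3, filled circles FTY720 and open squares placebo; the digits separate for each gene, and filled and open symbols of a digit mix for Kcng4 and Kcnk10.

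Kv1 subunits sit on axons. Kcna2, the most abundant at a mean of 24.5 FPKM, was higher with digit 3 at 208 to 289 CPM with digit 1 and 238 to 431 CPM with digit 3 (log2 fold change 0.46 ± 0.16, adjusted p = 0.0468), close to the threshold and with overlapping mice, and it no longer passed (0.39 to 0.47) without F1-622, F1-918, F3-609, F3-612, P1-623 or P3-907, nor with GC and length trends removed (0.17, adjusted p = 0.144). Kcna1 had 13.0, 53.9, 39.9 and 33.3 CPM with digit 1 against 25.0 to 101 CPM (median 62.8) with digit 3, a wide spread in which F1-622 and P3-612 were lowest, and its log2 fold change of 0.87 ± 0.38 did not pass (adjusted p = 0.106). Kcna5, a delayed rectifier subunit best known from heart, fell from 6.52 to 8.33 CPM with digit 1 to 3.26 to 5.44 CPM with digit 3 (log2 fold change -0.88 ± 0.17, adjusted p = 0.00276), and Kcna4 fell by 0.34 on the log2 scale (adjusted p = 0.0280). Of the Kv7 genes, which carry the M-current, Kcnq3 did not pass (0.12 ± 0.15), and Kcnq5 was lower (log2 fold change -0.42 ± 0.12, adjusted p = 0.0198). In the EAG, ERG and ELK family, Kcnh3 (ENSMUSG00000037579, chr15:99224861-99242817, plus strand), an ELK channel of forebrain neurons, was 142, 181, 189 and 219 CPM with digit 1 against 78.3 to 115 CPM (median 99.0) with digit 3 (log2 fold change -0.94 ± 0.11, adjusted p = 0.000125). It made up 46.4 to 52.5% of the family's FPKM with digit 1 and 30.9 to 40.9% with digit 3, and it overlaps Mcrs1 on the other strand, whose reads cannot be told apart without a stated strand setting. Kcnh6 was also lower (log2 fold change -0.53 ± 0.18, adjusted p = 0.0432), and the other 6 did not pass.

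Among auxiliary subunits, Kcnab2, a Kv beta subunit and the most abundant channel gene of all at a mean of 78.2 FPKM, was 473, 504, 538 and 614 CPM with digit 1 against 301 to 433 CPM (median 381) with digit 3 (log2 fold change -0.56 ± 0.09, adjusted p = 0.000929). It overlaps Nphp4 on the other strand. Its paralog Kcnab1 went the other way, at 103 to 121 CPM with digit 1 and 130.5 to 148 CPM with digit 3 (log2 fold change 0.31 ± 0.08, adjusted p = 0.0117), again without overlap between digits, but at 0.03 (adjusted p = 0.789) with GC and length trends removed. The KChIP genes Kcnip2 and Kcnip3, calcium-binding partners of Kv4, were lower by 0.44 and 0.46 on the log2 scale (adjusted p = 0.0218 and 0.0175), whereas Kcnip1 and Kcnip4 did not pass.

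Inward rectifiers differed in both directions. Kcnj4 (ENSMUSG00000044216, chr15:79483714-79505241, minus strand), a Kir2 subunit, measured 128, 127, 133 and 167 CPM in the digit 1 mice F1-622, F1-624, F1-918 and P1-623 and from 44.1 to 93.2 CPM (median 70.7) in the 6 digit 3 mice. Every digit 1 mouse lay above every digit 3 mouse (log2 fold change -1.13 ± 0.14, adjusted p = 0.000155). Kcnj12, another Kir2 subunit, was the reverse at 11.9, 12.2, 16.9 and 13.8 CPM with digit 1 against 18.0 to 23.6 CPM (median 21.1) with digit 3 (log2 fold change 0.59 ± 0.13, adjusted p = 0.00684). Kcnj10, the astrocyte channel that buffers potassium, had 187 to 234 CPM with digit 1 and 223 to 348 CPM with digit 3 (log2 fold change 0.39 ± 0.12, adjusted p = 0.0321), with overlapping mice, and it did not pass (0.34 to 0.40) without F1-622, F1-624, F3-609, F3-612, P1-623 or P3-907, while 1 of 6 astrocyte markers was higher and 1 lower. In the summed FPKM of the family, Kcnj4 made up 31.5 to 38.4% with digit 1 and 13.9 to 25.3% with digit 3, and Kcnj10 18.3 to 22.2% and 24.2 to 35.1%. Kcnj8, a subunit of the KATP channel of mural cells, was lower (log2 fold change -0.69 ± 0.22, adjusted p = 0.0341), and did not pass (-0.68 to -0.58) without F1-624, F1-918, F3-609, F3-612, P1-623 or P3-907. Of 9 endothelial and mural cell markers, 1 was higher with digit 3 and 0 were lower, with a median log2 fold change of 0.26. The G protein-gated Kcnj3 and Kcnj6 and the choroid plexus gene Kcnj13 did not pass, with log2 fold changes of 0.13, 0.27 and 0.37.

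**Figure D3:**
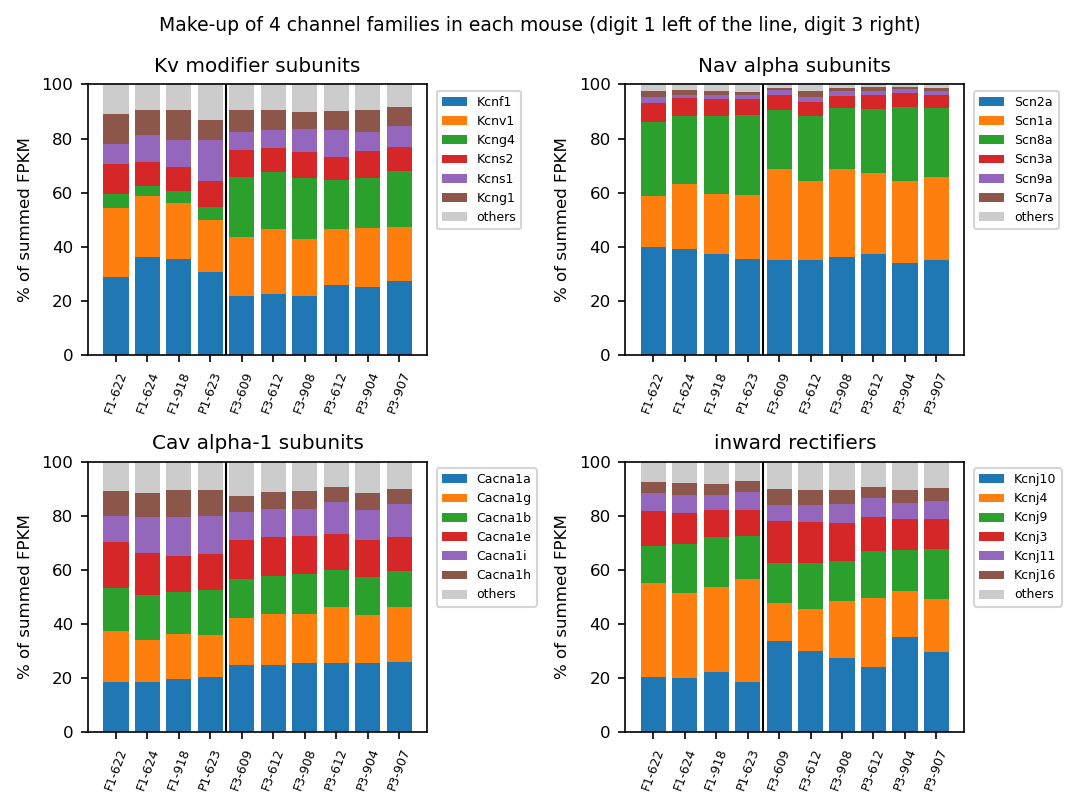
Share of each gene in the summed FPKM (y axis, percent) of the Kv modifier, Nav, Cav and inward rectifier families, 1 bar per mouse, with digit 1 mice left and digit 3 mice right of the black line. Kcng4, Scn1a, Cacna1a and Kcnj10 take larger shares in each digit 3 mouse than in any digit 1 mouse, and Kcnf1 and Kcnj4 smaller ones.

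K2P leak channels set the resting potential, and 5 of 10 tested differed, beside 28.4% of all genes. Kcnk10 (ENSMUSG00000033854, chr12:98429437-98578310, minus strand), the TREK-2 channel opened by stretch and fatty acids, measured 8.29, 11.0, 9.89 and 10.7 CPM in the digit 1 mice F1-622, F1-624, F1-918 and P1-623 and from 18.7 to 25.3 CPM (median 22.3) in the 6 digit 3 mice. The digits were separate in all 10 mice (log2 fold change 1.11 ± 0.13, adjusted p = 9.52e-05). Its relatives Kcnk2 (TREK-1) and Kcnk4 (TRAAK) went down instead, from 64.9 to 72.6 CPM with digit 1 to 48.0 to 54.9 CPM with digit 3 (log2 fold change -0.44 ± 0.08, adjusted p = 0.00185) and from 11.9 to 13.6 CPM with digit 1 to 6.22 to 10.9 CPM with digit 3 (log2 fold change -0.60 ± 0.16, adjusted p = 0.0140), the latter not passing without P1-623 (-0.65). Kcnk9, an acid-sensitive channel of cerebellar granule cells, was higher (log2 fold change 0.65 ± 0.14, adjusted p = 0.00655), and Kcnk6 lower (log2 fold change -0.57 ± 0.19, adjusted p = 0.0373). Kcnk1, the most abundant at 39.2 FPKM, did not pass (0.20 ± 0.09, adjusted p = 0.0963). Of the calcium-activated and sodium-activated channels, Kcnt1 (Slack), opened by sodium, was 123, 143, 151 and 154 CPM with digit 1 against 197 to 277 CPM (median 231) with digit 3 (log2 fold change 0.70 ± 0.11, adjusted p = 0.000842). It rose from 29.5 to 34.1% of the summed FPKM of that group to 42.6 to 45.7%. The SK channel gene Kcnn1 was lower (log2 fold change -0.52 ± 0.13, adjusted p = 0.0106), Kcnn2 had a log2 fold change of 0.00 ± 0.13, and the BK channel gene Kcnma1 one of 0.16 ± 0.18.

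Of 7 sodium channel alpha subunits tested, 3 differed, beside 28.4% of all genes. Scn1a, the channel of inhibitory neurons that is mutated in Dravet syndrome, measured 91.7, 187, 133 and 133 CPM in the digit 1 mice F1-622, F1-624, F1-918 and P1-623 and from 154 to 288 CPM (median 241) in the 6 digit 3 mice. Only F1-624 among the digit 1 mice rose above the lowest digit 3 mouse (log2 fold change 0.82 ± 0.20, adjusted p = 0.00921). Its share of Nav FPKM went from 19.1 to 23.9% to 29.0 to 33.8%. The other main brain channels, Scn2a, Scn3a and Scn8a, did not pass, with log2 fold changes of 0.27 ± 0.15, 0.10 ± 0.17 and 0.13 ± 0.18. Scn9a was higher (log2 fold change 0.37 ± 0.13, adjusted p = 0.0471), though at -0.02 (adjusted p = 0.922) with GC and length trends removed. Among calcium channel alpha-1 subunits, Cacna1a, the P/Q-type channel of Purkinje cells, was the 1 of 10 that differed, at 115, 162, 166 and 159 CPM with digit 1 against 172 to 289 CPM (median 219) with digit 3 (log2 fold change 0.53 ± 0.15, adjusted p = 0.0211), and its share of the family rose from 18.4 to 20.4% to 24.7 to 26.0%. It did not pass without F3-609, F3-612 or P1-623 (0.55, 0.47 and 0.53). The T-type genes Cacna1g and Cacna1i and the R-type gene Cacna1e did not pass (0.33, -0.15 and 0.09). The pacemaker channel gene Hcn2 was lower at 201 to 295 CPM with digit 1 and 149 to 252 CPM with digit 3 (log2 fold change -0.33 ± 0.10, adjusted p = 0.0275), with overlapping mice. It did not pass without P1-623 (-0.34), F1-918 (-0.25) or F3-609 (-0.27). With GC and length trends removed its log2 fold change was 0.10 and it did not pass.

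Just inside the threshold stood Kcnh6, Kcna2 and Scn9a at adjusted p-values of 0.0432, 0.0468 and 0.0471 (edgeR), and just outside it Kcnh4, Kcne4 and Kcnu1 at 0.0519, 0.0535 and 0.0542. Of the 34 called channel genes named here, 16 kept their call in each of 24 alternatives run, and Kcna2, Kcnd3, Kcnh6, Kcns2 and Scn9a lost it in 13 to 17 of them. Kcnk6 lost it in 9, 7 of them without F1-622, F1-624, F1-918, F3-609, F3-612, F3-908 or P3-904. Kcna4 lost it in 6, among them those without F1-622, F3-609, F3-612 or P1-623. Kcnip2 and Kcnq5 each lost it in 4, both of them without F3-609 or P1-623, Kcnip2 also without F1-918 and Kcnq5 without F1-624, and Kcnip3 lost it without F3-609 alone. With GC and length trends removed 8 lost it: Hcn2, Kcna2, Kcnab1, Kcnd3 and Scn9a, given above, and Kcng1 (-0.43), Kcnh6 (-0.34) and Kcnk4 (-0.43). The differences of Kcnk9 (0.42), Kcns1 (-0.49) and Scn1a (0.49) then shrank by over 1.5 times but passed, as did that of Cacna1a (0.29) with the length trend alone removed. With GC and length trends removed 20 other channel genes passed, among them Kcnb2 (-0.67), Kcnk12 (0.69), Kcnu1 (-0.64), Kcnv1 (-0.51), Cacna1g (0.41), Kcnk1 (0.29) and Kcnh2 (0.23). Cacna1e (-0.24), Kcnc2 (-0.24), Kcnq3 (-0.22) and Scn3a (-0.29) were also among them. Across the 103 channel genes, the log2 fold change had a Spearman correlation of -0.28 with GC content and of 0.30 with exonic length, as a description over genes that share the same 10 libraries. Over 17647 genes with a GC value the correlation with GC was -0.44. The 21 lower channel genes had a median length of 4151 bases and a median GC content of 55.1%, and the 16 higher ones 9479 bases and 48.5%.

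Partner proteins of the channels were described from lists. Of all genes tested, 13.9% were higher and 14.4% lower with digit 3, and each list is short. Of 14 genes listed as calcium channel auxiliary subunits, 2 were higher and 6 lower with digit 3, with a median log2 fold change of -0.10. Cacnb4, a beta subunit that partners Cacna1a, was higher (140.4 to 215 against 205 to 288 CPM, log2 fold change 0.58 ± 0.13, adjusted p = 0.00684), and Cacnb1 (114 to 144 against 67.4 to 94.6 CPM, log2 fold change -0.72 ± 0.10, adjusted p = 0.000339) and Cacnb3 (164 to 243 against 102 to 149 CPM, log2 fold change -0.72 ± 0.11, adjusted p = 0.000733) were lower. The Cacng genes of this list are best known as AMPA receptor auxiliary proteins. Cacng8 fell most of the 14 (46.7 to 86.8 against 21.6 to 45.0 CPM, log2 fold change -1.08 ± 0.15, adjusted p = 0.000434). Cacng3 (-0.50) and Cacng4 (-0.46) were also among the 6 lower. Of 8 sodium channel beta subunits and FGF homologous factors, 2 were higher, among them Fgf14 (30.3 to 37.8 against 37.3 to 50.4 CPM, log2 fold change 0.48 ± 0.11, adjusted p = 0.00622), and 2 lower. Of 4 tested genes of the sodium leak channel complex, Unc80 was higher (265 to 372 against 324 to 577 CPM, log2 fold change 0.65 ± 0.16, adjusted p = 0.0101) and 1 was lower. With GC and length trends removed Cacnb4 and Fgf14 no longer passed (0.20 and 0.16), and Unc80 (0.39), Cacng8 (-0.63), Cacnb1 (-0.47) and Cacnb3 (-0.42) passed at smaller differences. Unc80 did not pass without P1-623 (0.62). Potassium and HCN channel partners counted 1 higher and 1 lower of 12, and scaffold genes of the axon initial segment and node 1 higher of 8.

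Whether FTY720 changed channel expression was tested in the same fit, with the digit as a covariate. At an adjusted p under 0.05, 0 channel genes and 0 of all genes differed (0%). At an unadjusted p under 0.05, the threshold of the study, 12 of 103 channel genes passed (11.7%), beside 12.8% of all genes. With the fit limited to protein-coding genes, to which the study also limited its list, 13 passed (12.6%), beside 14.3% of those genes. The study states no covariate, whereas this fit holds the digit, so these counts are not counts of the study's list. Higher levels with FTY720 were found for 2 (1.94%, all genes 4.98%) and lower levels for 10 (9.71%, all genes 7.79%). This split depended on the fit. With no filter on low counts 12 of 23 were higher, and without placebo mouse P3-904 9 of 21 were. In the other alternatives run 0 to 5 were higher, the 0 being out of 11 without F3-612. The smallest adjusted p of a channel gene was 0.354, so each difference below failed the correction. Without the digit in the fit 5 channel genes passed (4.85%, all genes 2.61%), and in the digit 3 mice alone, 3 against 3, 9 did (8.74%, all genes 7.31%). Of the 12, 7 were among those 9. The groups did not overlap for 3 channel genes (2.91%, all genes 0.804%). The median log2 fold change of the 103 was -0.02, and that of all genes -0.01. No interaction of digit and treatment, which rests on a single placebo mouse with digit 1, was called by edgeR in channel genes or in all genes (0%), and 3 channel genes had an unadjusted p under 0.05 for it (2.91%, all genes 1.95%), namely Kcng1, Kcnf1 and the nearly silent Kcnn4.

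Hcn2 had the smallest p. It measured 149 to 254 CPM (median 194) in the 6 FTY720 mice and 224, 232, 252 and 295 CPM in the 4 placebo mice, with overlap (log2 fold change -0.44 ± 0.10, unadjusted p = 0.000774, adjusted p = 0.354). Kcnk13, the THIK-1 leak channel known from microglia, measured 8.59 to 11.8 CPM (median 10.4) in the 6 FTY720 mice and 12.4, 13.5, 14.7 and 16.0 CPM in the 4 placebo mice (log2 fold change -0.48 ± 0.13, unadjusted p = 0.00236, adjusted p = 0.354). Every placebo mouse lay above every FTY720 mouse. Microglia markers summed to 211 to 325 CPM with FTY720 and 243 to 306 CPM with placebo, and 1 of 6 was lower. Endothelial and mural cell markers summed to 199 to 286 CPM with FTY720 and 184 to 206 CPM with placebo, and 5 of 9 were higher at an unadjusted p under 0.05. Oligodendrocyte markers summed to 5454 to 6369 and 6238 to 7285 CPM, and 3 of 6 were lower. The part of these markers in the FTY720 differences was not tested. Kcnh2, the ERG channel, measured 47.3 to 60.8 CPM (median 55.4) in the 6 FTY720 mice and 64.9, 65.5, 69.5 and 69.8 CPM in the 4 placebo mice, also without overlap (log2 fold change -0.31 ± 0.09, unadjusted p = 0.00467, adjusted p = 0.354). The third gene without overlap was Kcne1l, an auxiliary subunit (unadjusted p = 0.0588).

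Kcnk12, the relative of Kcnk13, had 9.78 to 16.9 CPM (median 13.6) in the 6 FTY720 mice and 14.6, 19.5, 22.6 and 22.7 CPM in the 4 placebo mice (log2 fold change -0.52 ± 0.17, unadjusted p = 0.00808, adjusted p = 0.354). The modifiers Kcns1 and Kcng2 had log2 fold changes of -0.52 ± 0.16 and -0.37 ± 0.14. Kcnj4 and Kcnn1 had -0.40 ± 0.14 and -0.31 ± 0.13, and Kcnab2 and Kcnh3 -0.27 ± 0.09 and -0.27 ± 0.11. With single mice left out, Kcns1 no longer passed without P1-623 (-0.42), Kcng2 without P3-612, P1-623 or F3-609 (-0.32 to -0.30), Kcnh3 without those mice or P3-907 (-0.26 to -0.22), and Kcnn1 without F1-624, F3-609, P3-612 or P3-907 (-0.29 to -0.21). Of the 12, 8 also differed with the digit (66.7%), as did 58.1% of all 2256 genes that passed for FTY720 in the same fit. Without placebo mouse P3-904, 21 channel genes passed instead of 12 (20.4%, all genes 20.9%), and without P3-612 8 did (7.77%, all genes 7.64%).

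**Figure D4:**
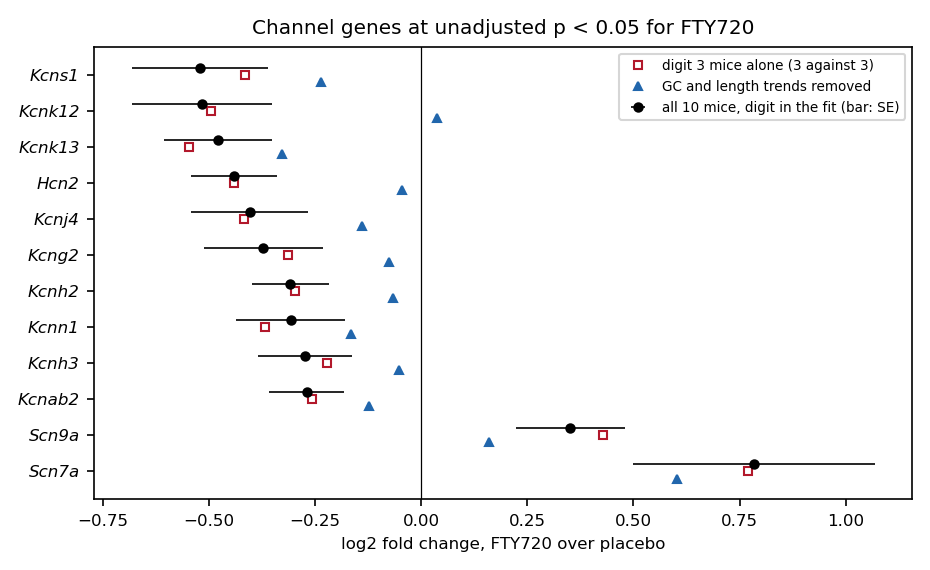
Log2 fold change of FTY720 over placebo (x axis) for the 12 channel genes at an unadjusted p under 0.05. Black circles with standard errors are the fit of all 10 mice, open red squares the digit 3 mice alone and blue triangles the fit with GC and length trends removed; squares stay near the circles, and triangles lie nearer 0.

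GC content moved with these differences. The 10 lower channel genes had a GC content in their longest transcript of 55.8 to 69.4% (median 61.0%), against a median of 51.2% in the 91 channel genes that did not pass and 49.4% in all genes tested, and the 2 higher ones had 40.2 and 42.4%. The Spearman correlation of the FTY720 log2 fold change with GC content was -0.66 over the 103 channel genes and -0.53 over all genes, given as a description of 10 shared libraries. After each library's trends with GC content and length were removed, 5 channel genes passed (4.85%, all genes 6%), of which Kcnk13 (log2 fold change -0.33) and Scn7a (0.60) were among the 12. The difference in Hcn2 was then -0.05, in Kcnh2 -0.07 and in Kcnk12 0.04.

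**Figure D5:**
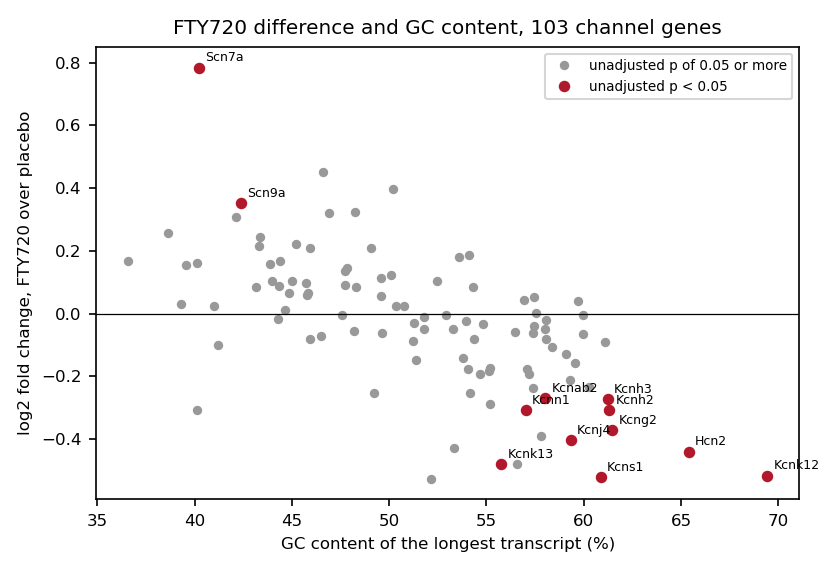
Log2 fold change of FTY720 over placebo (y axis) against the GC content of the longest transcript (x axis, percent) for the 103 tested channel genes, with those at an unadjusted p under 0.05 in red and named. The 10 lower red genes lie at 55.8% GC or above, and Scn7a and Scn9a lie at 40.2 and 42.4%.

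The 2 higher genes are both sodium channels known from the peripheral nervous system, and 1 library was the highest for both. Scn7a, a sodium-sensing channel of glia and sensory ganglia, measured 5.08 to 13.6 CPM (median 6.55) in the 6 FTY720 mice and 4.06, 4.44, 4.52 and 5.08 CPM in the 4 placebo mice (log2 fold change 0.78 ± 0.28, unadjusted p = 0.0163, adjusted p = 0.354). Mouse F3-612 held 13.6 CPM, and the other digit 3 mice 4.44 to 5.13 CPM. Scn9a, a channel of pain-sensing neurons, had 11.3 to 17.4 CPM (median 12.2) in the 6 FTY720 mice and 9.96, 10.1, 11.9 and 13.0 CPM in the 4 placebo mice (log2 fold change 0.35 ± 0.13, unadjusted p = 0.0168, adjusted p = 0.354). Without F3-612 their log2 fold changes were 0.38 and 0.29, neither passed, and Scn7a did not pass without P1-623 (0.77) nor Scn9a without P3-612 (0.28). In all, 11 channel genes passed without F3-612 (10.7%, all genes 9.29%). The sensory neuron channels Scn10a and Scn11a, too low for testing, stood apart in the same mouse: Scn10a had 98 counts in F3-612, 20 in F3-908 and 2 to 7 elsewhere, and Scn11a had 52 counts in F3-612 and 1 to 11 in the others. From a list of 9 markers of sensory neurons and Schwann cells written after these counts were seen, 7 were highest in F3-612. Prph, a filament protein of peripheral neurons, had 248 counts there and 36 to 111 in the other 9 mice, Avil 118 against 7 to 21, and Prx 111 against 15 to 33. Isl1 (87 against 63 to 99) and Ncmap (30 against 13 to 39) did not stand apart. The part of such RNA in the Scn7a and Scn9a differences was not tested. The digit comparison without F3-612 called 27 channel genes (26.2%, all genes 19.6%).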

How the data were processed

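Brain RNA of 10 mice was sequenced from libraries of the NEBNext Ultra kit. The whole-number counts per gene were deposited by the authors without normalization, and the authors also deposited FPKM values, which scale counts by gene length and library. Per the labels and methods, bases were called with CASAVA 1.8, reads passed through in-house Perl scripts and fastp and were aligned to GRCm38 with HISAT2 2.0.5, and featureCounts 1.5.0-p3 and DESeq2 1.20.0 are named. The annotation release and strand setting are not given in the sources used here, so genes that overlap another gene are uncertain, and 114 of the 118 channel genes have the same coordinates in GENCODE M21.

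The channel genes and all lists were chosen with earlier results of these data known. Counts were filtered with filterByExpr (minimum count 10), scaled by TMM and analysed by the quasi-likelihood test of edgeR 4.0.16 in R 4.3.3 for all 10 mice with treatment and digit as terms, and p-values were adjusted by Benjamini-Hochberg over 17665 genes. The digit is called at an adjusted p of 0.05, and FTY720 is counted at an unadjusted p of 0.05, the study's threshold, which was set on protein-coding genes, and adjusted. Errors after ± are standard errors of the log2 fold change, obtained by dividing its size by the root of F. CPM values are TMM-scaled, and log2 CPM used a prior count of 2. The scripts were tested on simulated counts. DESeq2 1.42.0 and limma 3.58.1 were alternatives, with other scalings, filters, covariates, pseudocounts of 0.1 and 1 on FPKM, left-out mice and removal of each library's trends with gene length and with the GC content of the longest GENCODE M21 transcript.

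Named genes were those of the 8 largest differences in each direction among called channel genes without overlap between digits that are reported here (7 in each), those at an unadjusted p under 0.05 for FTY720, the most abundant of each family, a fixed set of well-known channels and the 3 largest called differences in each direction among partner genes. Of the tested channel genes, 5 enter the counts but are not reported here by name. Other channel genes were named after their values were seen, to account for called ones. Per the methods littermates were used, and neither they nor the labels say which mice shared a litter or batch, so p-values measure the spread between these mice. Depth limits the precision of genes with few counts.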

Additional observations from a re-analysis of the deposited data

Results flagged for a closer look

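Channel genes named in the text were searched for a mouse that lies far from the rest of its digit group or treatment group, measured against the range of the group. Of 106 groups of values, 2 held such a mouse, and chance alone would mark about 5% of groups, or 5.3. Cacna1a measured 115 CPM in F1-622 and 159 to 166 CPM in the other digit 1 mice. Scn7a reached 13.6 CPM in F3-612, against 4.44 to 5.13 CPM in the other digit 3 mice. F1-622 also had a trend of -0.085 in log2 level per doubling of gene length, the values of all 10 mice lying between -0.094 and 0.089. The trend was steeper in P1-623 (-0.094) and P3-612 (-0.090), where Cacna1a measured 159 and 172 CPM. The part of the length trend in the low value of Cacna1a in F1-622, a long gene, was not tested.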

How the results depend on the processing

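The count of 37 channel genes that differed with the digit stayed within 1.5 times under every alternative run except within the FTY720 mice alone (23) and with mice left out, where it ranged from 21 (without P1-623) to 39. The 14 genes named for the largest rises and falls kept their direction in every alternative run, and 10 of them kept their call; Kcng1 and Kcnk4 lost it with GC and length trends removed, Kcnd2 and Kcnk4 within the FTY720 mice alone, and Cacna1a and Kcnk4 with single mice left out. With GC and length trends removed, signs turned among genes named by rule for Hcn2 (0.10), Kcnq3 (-0.22), Scn3a (-0.29), Cacna1e (-0.24), Scn2a (-0.078), Kcnj3 (-0.068), Kcnma1 (-0.19) and Scn8a (-0.058) in the digit comparison. That of Kcnk12 (0.036) turned in the FTY720 comparison. Of the other genes called for the digit and named here, Scn9a (-0.018) turned. Genes that were not called and were named outside the rule are not listed. With the length trend alone removed, Cacna1e turned to -0.32, Kcnma1 to -0.17, Kcnq3 to -0.17, Scn3a to -0.17, Scn8a to -0.18 and Kcnn2, at 0.00 in the fit reported, to -0.14. Kcnn2 was also -0.020 with no filter on low counts, -0.030 with the leading digit of the mouse number added, -0.036 in the FTY720 mice alone and -0.075 to 0.095 with mice left out. Which of the gene trends are technical was not tested. The count of 12 for FTY720 became 23 with no filter on low counts, 5 with GC and length trends removed, 5 with no digit covariate and 8 to 21 with mice left out. At an adjusted p it was 0 under each alternative run but the unfiltered table, which gave 4. The interaction gave 0 under each alternative run, and it could not be fitted without P1-623. Digit differences of the genes named by rule for the digit, Scn9a not among them, gave, over alternatives other than left-out mice, 520 with the same sign and call, 18 that lost the call, 5 that gained it and 17 that changed sign; those of FTY720 gave 144, 23, 0 and 1. With scaling by RLE or upper quartile, the median log2 fold change of all genes lay within 0.01 of 0. For the digit it was -0.0046 and 0.0095, against -0.011 in the fit reported. No paired analysis was possible because the groups share only the mouse number 612. With 1 placebo mouse of digit 1, that cell of the design has no spread of its own. Genes with few counts, such as Kcnn4, Scn10a and Scn11a, are limited by depth.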

Other observations

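Of the 15 channel genes too low for the test, 13 had at most 11 counts in any mouse: Kcna7, Kcna10, Kcne1, Kcne3, Kcnj1, Kcnj15, Kcnk7, Kcnk15, Kcnk16, Kcnk18, Kcnmb3, Kcnv2 and Scn4a, which are best known from muscle, kidney, retina or other tissues outside the brain. Scn10a and Scn11a reached 98 and 52 counts, both in F3-612.

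The GC trend differed between libraries. The log2 level changed per 10 percentage points of GC by -0.34, -0.17 and -0.10 in the FTY720 mice F3-609, F3-612 and F3-908, and by 0.08, -0.13 and 0.05 in the placebo mice P3-612, P3-904 and P3-907 of the same digit. In the digit 1 mice it was 0.06, 0.05 and 0.22 with FTY720 and 0.29 with placebo. Each value is relative to the mean of the 10 libraries, and whether the trend is a property of the libraries or of the tissue was not tested.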
